A study of Mus musculus with 48 samples.

Results

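Ccl17, Ccl22 and Cx3cl1 are 3 chemokine genes that lie close together on mouse chromosome 8. Counts of newly made RNA credited to them were followed here in mouse embryonic stem cells before and after mitosis. They are 3 of the 55291 gene symbols in the count tables. The 3 were picked by their symbols and position, with their own levels by genotype, clone and time already known, so every level and difference given for them is a description and carries no test. Tests are given only for genes that the choice did not use, namely the neighbours on the chromosome and lists of genes with related roles.

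Chemokines are small secreted proteins that guide cell migration through G protein-coupled receptors. CCL17 and CCL22 share the receptor CCR4, which draws T helper 2 and regulatory T cells, and are best known as products of dendritic cells and macrophages, where STAT6 and NF-kB act on their genes. CX3CL1 (fractalkine) is made as a membrane protein with its chemokine domain on a mucin-like stalk, binds CX3CR1, and is cut from the surface by ADAM10 and ADAM17; neurons and endothelium are its classical sources. None of the 3 is a marker of embryonic stem cells.

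The cells were of strain 129S5/SvEvBrd and grew with serum and LIF on gelatin. Smarce1-MD cells (MD, clones MD09 and MD30) had SMARCE1, which belongs to the SWI/SNF chromatin remodelling complex, in a form meant to be degraded in mitosis, and Smarce1-MD (R42A) cells (R42A, clones A04 and A10) carried the R42A form of that construct and are taken here as the control. Both genotypes therefore carry the construct, and cells without it were not analysed here. Each clone was sampled growing asynchronously, on release (0 min) from 6 h in 100 ng/ml nocodazole, which blocks microtubules and holds cells in mitosis, and then after 45, 90, 180 and 240 min. RNA made during a pulse of 5-ethynyluridine was captured and sequenced, with 2 libraries per clone and condition, 4 per group and 48 in all. The clone is the replicate (n = 2 per genotype), each genotype is a pair of clonal lines, and a difference between genotypes cannot be told apart from one between these lines.

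All 3 genes are protein coding and lie on the plus strand (GENCODE M21, mm10). Ccl22 spans chr8:94745590-94751699, Cx3cl1 chr8:94772009-94782427 and Ccl17 chr8:94810453-94812036. The gaps are 20.3 kb from Ccl22 to Cx3cl1 and 28.0 kb from Cx3cl1 to Ccl17, and the whole cluster covers 66.4 kb. Between Ccl22 and Cx3cl1 lies a processed pseudogene, Gnb1-ps3, with 16 counts over all libraries. Upstream, Gm22846, a misc_RNA gene with 5 counts, lies 47.3 kb and Pllp 49.3 kb before Ccl22, and Ciapin1, on the minus strand and thus read towards Ccl17, ends 7.8 kb past it. No annotated gene overlaps any of the 3 on the other strand. Their merged exons hold 2325 bases (Ccl22), 3930 bases (Cx3cl1) and 514 bases (Ccl17), so levels are compared between the 3 only per kb of exon.

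The 250 bases before each RefSeq start site (GRCm38.p6) are shown because the 3 genes share a direction and a neighbourhood but not a time course. Capitals mark matches, on either strand, to TTCNNNNGAA (the letters STAT6 binds), to GGGNNNNNCC (a loose kappaB motif) and to TATAAA.
Ccl17, chr8:94810203-94810452, plus strand: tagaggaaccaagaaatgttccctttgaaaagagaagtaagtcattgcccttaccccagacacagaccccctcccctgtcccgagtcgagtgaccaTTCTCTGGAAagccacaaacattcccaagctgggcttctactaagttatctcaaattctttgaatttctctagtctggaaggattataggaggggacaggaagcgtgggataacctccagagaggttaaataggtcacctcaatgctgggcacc
Ccl22, chr8:94745434-94745683, plus strand: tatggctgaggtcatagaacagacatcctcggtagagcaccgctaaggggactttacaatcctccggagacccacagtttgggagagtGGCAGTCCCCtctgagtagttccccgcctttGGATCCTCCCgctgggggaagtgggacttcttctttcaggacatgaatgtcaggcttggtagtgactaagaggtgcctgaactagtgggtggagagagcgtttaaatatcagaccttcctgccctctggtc
Cx3cl1, chr8:94771930-94772179, plus strand: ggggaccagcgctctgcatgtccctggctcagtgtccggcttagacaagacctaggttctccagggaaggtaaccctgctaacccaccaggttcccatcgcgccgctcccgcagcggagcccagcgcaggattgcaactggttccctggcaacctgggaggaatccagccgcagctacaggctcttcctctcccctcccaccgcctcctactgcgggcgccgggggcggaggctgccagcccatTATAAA
The Ccl17 start site is that of GENCODE, while those of Ccl22 and Cx3cl1 lie 94 and 171 bases past the first annotated base of the gene. The Ccl17 sequence held 1 match to TTCNNNNGAA, from base -154 to -145, a match that 5.85% of 32851 RefSeq promoters of this length hold. The Ccl22 sequence held 2 matches to GGGNNNNNCC on the minus strand, at -162 to -153 and -131 to -122; 45.8% of promoters hold at least 1. The Cx3cl1 sequence held TATAAA directly before its start site, at -6 to -1, as 12.4% of promoters do anywhere in the window. CCAAT (33.8% of promoters) and the AP-1 motif TGANTCA (6.75%) had no match in the 3 sequences, and CANNTG (66.2%) had 1, in Cx3cl1. No match overlapped another. The G and C content was 47.6% for Ccl17, 53.6% for Ccl22 and 64.8% for Cx3cl1, with 3, 6 and 14 CpG pairs.

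Counts credited to genes ranged from 630119 to 3885219 per library, with low totals in MD at 90 min (630119 to 1518400) and, for both genotypes, at 0 min (762327 to 1022255). The MD libraries at 90 min also stood apart in their share of counts on mitochondrial genes, 0.529 to 4.31%, against 0.183 to 0.217% in R42A at 90 min and 0.138 to 0.657% in the other libraries. The part of this in the 90 min differences given for every gene here was not tested. A level is given in CPM, the count scaled by the library's total, and 3 counts, the most that a count of 0 allows, equal 0.772 to 4.76 CPM depending on the library. The constitutive genes Actb and Gapdh had medians of 82.0 and 59.4 CPM. Herpud1 had 1.90 CPM against 17.6 CPM for Gm15890 on its other strand. A strand setting is not given in the sources used here, and reads from overlapping genes on both strands cannot be told apart. The levels of the 3 chemokine genes are thus counts credited to their symbols. Whether those reads come from each gene's own strand was not tested. Of the 12 embryonic stem cell markers, summed per clone, MD had 445 to 1194 CPM and R42A 854 to 1471 CPM. The MD clones lay below the R42A clones in every condition but 45 min (445 and 630 CPM in MD, 949 and 1007 CPM in R42A at 90 min). Esrrb, at a mean of 785 CPM, was by far the highest of the 12 and weighs most in these sums. Zfp42 and Klf4 were each lower in MD at 0, 45, 180 and 240 min (at 240 min log2 -0.80 ± 0.17 and -0.88 ± 0.19, adjusted p = 0.00117 and 0.00141), Fgf4 in asynchronous cells and at 90 and 240 min, and Esrrb at 90 min (-1.19 ± 0.18, adjusted p = 3.28e-06). The asynchronous Fgf4 call was lost in 13 of 20 alternatives and the 45 min Zfp42 call in 7 of 20. Pou5f1 was lower at 0 min (adjusted p = 0.047) and Utf1 at 45 min (0.00571), while Nanog was higher at 90 min (log2 0.64 ± 0.23, adjusted p = 0.0273). Whether the Pou5f1, Utf1 and Nanog calls held in the alternatives is not given here. Of the 11 tested, 1, 3, 3, 2, 2 and 3 were lower in the 6 conditions in order of time. Only Nanog was called higher. Over all features 7.95, 2.95, 7.33, 22.1, 7.46 and 4.43% were lower, and at 90 min 15.6% were higher. Sox2 was at 0 in every library. Smarce1 itself had 18.2 to 39.3 CPM in MD libraries and 24.9 to 55.6 CPM in R42A libraries and was lower in MD at 45, 180 and 240 min (log2 -0.88 ± 0.18, -0.67 ± 0.18 and -0.72 ± 0.19, adjusted p = 0.000533, 0.0102 and 0.00957). The construct acts on the protein, so this does not check the labels.

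Ccl17 was lower in MD than in R42A in asynchronous cells and at 45, 90 and 180 min, by 2.94-fold to 8.21-fold, while at 0 and 240 min the libraries overlapped. In asynchronous cells the MD libraries had 3.14 and 2.59 CPM (MD09) and 3.26 and 7.39 CPM (MD30), against 34.6 and 30.8 CPM (A04) and 32.4 and 13.0 CPM (A10) in R42A. Every MD library was below every R42A library, and the nearest pair was 1 library of MD30 and 1 of A10. The fitted log2 MD over R42A was -2.88 ± 0.29 (SE, 2 clones per genotype). At 0 min the MD libraries held 3.67, 6.85, 4.14 and 2.45 CPM and the R42A libraries 6.56, 5.58, 4.85 and 9.03 CPM. These ranges overlapped, from only 2 to 7 counts per library, and the log2 difference was -0.61 ± 0.49.

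After washout the Ccl17 difference was larger at 90 and 180 min than at 0 and 240 min. At 45 min MD had 3.06, 4.67, 3.21 and 2.57 CPM and R42A 11.3, 8.16, 12.9 and 6.10 CPM (log2 -1.56 ± 0.33). At 90 min MD had 2.63, 1.52, 4.76 and 3.15 CPM, from 2 to 4 counts each, and R42A 28.6, 17.8, 29.6 and 17.9 CPM (log2 -2.97 ± 0.38). R42A was thus nearly back at its asynchronous level at 90 min, and MD was not above its level at 45 min. At 180 min MD had 2.04, 0.367, 0.809 and 0.384 CPM and R42A 5.41, 6.81, 11.9 and 4.10 CPM (log2 -3.04 ± 0.42). At 240 min MD had 0.856, 1.27, 0.917 and 1.03 CPM and R42A 0.488, 1.14, 2.36 and 1.86 CPM (log2 -0.52 ± 0.61). At that time both genotypes were near the level of 1 to 5 counts per library, and leaving out clone A10 turned the difference to 0.28.

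Within R42A, where Ccl17 was well counted, the level was 28.1 ± 6.78 CPM in asynchronous cells, 6.45 ± 0.596 at 0 min, 9.60 ± 0.0409 at 45 min, 23.4 ± 0.885 at 90 min, 7.06 ± 1.42 at 180 min and 1.48 ± 0.886 at 240 min (SD, n = 2 clones). The steps were -2.52 ± 0.32 on the log2 scale from asynchronous cells to 0 min, 0.62 ± 0.37 to 45 min, 1.46 ± 0.23 to 90 min, -1.82 ± 0.23 to 180 min and -2.31 ± 0.40 to 240 min. Put in order of level, 0 and 180 min, and 90 min and asynchronous cells, did not differ beyond the spread between clones. Within MD the level was 4.15 ± 1.81 CPM in asynchronous cells, 4.40 ± 1.46, 3.50 ± 0.811 and 3.03 ± 1.3 CPM at 0, 45 and 90 min, and 0.875 ± 0.402 and 1.02 ± 0.0671 CPM at 180 and 240 min. Those 4 earlier levels did not differ beyond the spread between clones, and the lower level from 180 min on (log2 -1.88 ± 0.67 from 90 min) was the main change in MD. Against asynchronous cells, 240 min was lower in both genotypes, at log2 -2.21 ± 0.51 in MD and -4.57 ± 0.33 in R42A.

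**Figure D1:**
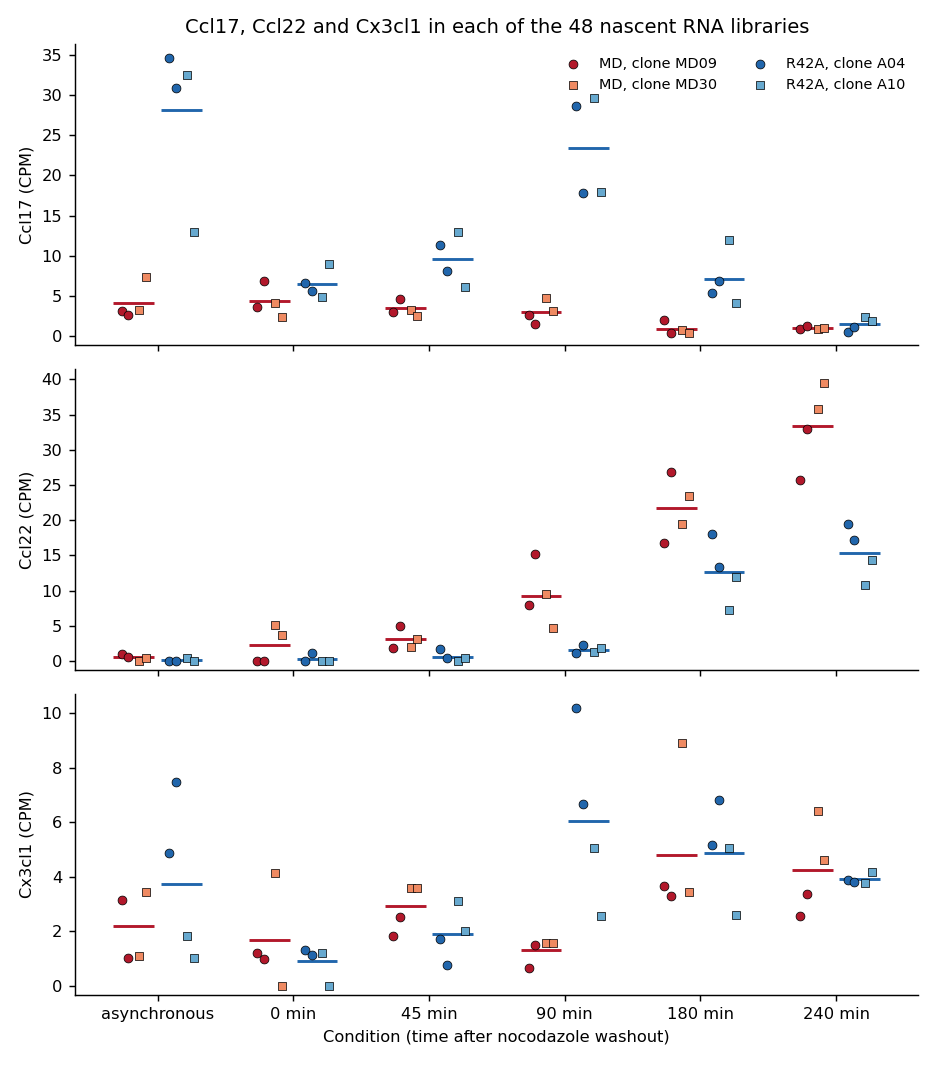
Levels of Ccl17, Ccl22 and Cx3cl1 (CPM, one panel each) in every library by condition. MD libraries (red, left) and R42A libraries (blue, right) are marked by clone and horizontal lines are means over the 2 clones; R42A Ccl17 stands at 13.0 to 34.6 CPM in asynchronous cells, above all MD libraries, while Ccl22 stands highest at 240 min, at 25.7 to 39.5 CPM in MD and 10.8 to 19.5 CPM in R42A.

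Ccl22 had nearly no counts in asynchronous cells. From 45 min on its mean level was higher at each later time in both genotypes, earlier and further in MD. A rise before 45 min was not resolved. From asynchronous cells to 0 min, R42A stayed at 1 count and MD clone MD09 went from 0.781 to 0 CPM. The step from 0 to 45 min was log2 0.52 ± 0.71 in MD. In R42A it was a ratio of 1.98 with a 95% interval of 0.24 to 90.9. In asynchronous cells the 4 MD libraries held 4 counts in all and the 4 R42A libraries 1, a ratio of 4.45 with a 95% interval of 0.441 to 219. At 0 min MD held 8 counts, all in clone MD30 (5.18 and 3.68 CPM; MD09 was at 0), and R42A held 1 (ratio 7.2, interval 0.966 to 320). At 45 min MD had 1.84, 5.03, 2.0 and 3.09 CPM and R42A 1.73, 0.389, 0 and 0.407 CPM. The lowest MD library lay just above the highest R42A library, and the log2 difference was 2.21 ± 0.78. At 90 min MD had 7.90 and 15.2 CPM (MD09) and 9.52 and 4.72 CPM (MD30), against 1.13, 2.22, 1.35 and 1.83 CPM in R42A (log2 2.69 ± 0.56, or 6.45-fold). This was the time at which Ccl22 differed most among the times with more than 3 counts in both genotypes, and the libraries did not overlap.

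At 180 min Ccl22 was well counted in every library. MD had 16.7, 26.8, 19.4 and 23.4 CPM and R42A 18.0, 13.3, 7.22 and 11.9 CPM, which overlapped at 1 library on each side (log2 0.67 ± 0.32). At 240 min MD had 25.7, 33.0, 35.8 and 39.5 CPM and R42A 19.5, 17.2, 10.8 and 14.4 CPM (log2 1.09 ± 0.32), with every MD library above every R42A library. The mean over clones was 33.4 ± 5.79 CPM in MD and 15.4 ± 3.91 CPM in R42A (SD, n = 2 clones). The largest step between times came from 45 to 90 min in MD (log2 2.06 ± 0.48) and from 90 to 180 min in R42A (2.84 ± 0.41). From 180 to 240 min the step was 0.61 ± 0.25 in MD and 0.20 ± 0.29 in R42A. Against asynchronous cells, 240 min was 5.71 ± 0.51 higher in MD on the log2 scale; in R42A, 139 counts stood against 1, a ratio of 133 with a 95% interval of 23.6 to 5308. These intervals cover counting error only. Neither genotype was therefore back at its asynchronous level of Ccl22 or Ccl17 at 240 min.

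Cx3cl1 was the most even of the 3 and differed between the genotypes mainly at 90 min, when it was lower in MD. At 90 min the MD libraries had 0.659, 1.52, 1.59 and 1.57 CPM, from 1 or 2 counts each, against 10.2 and 6.67 CPM (A04) and 5.04 and 2.56 CPM (A10) in R42A. The groups did not overlap (log2 -2.15 ± 0.69), and A04 was the higher R42A clone. In asynchronous cells MD had 3.14, 1.04, 1.09 and 3.45 CPM and R42A 4.89 and 7.46 CPM (A04) and 1.83 and 1.04 CPM (A10). These overlapped (log2 -0.91 ± 0.56), and without clone A04 the difference turned to 0.52. At 0 min there were 6 counts in MD and 3 in R42A (ratio 1.80, 95% interval 0.385 to 11.1). At 45 min MD had 1.84, 2.52, 3.61 and 3.60 CPM and R42A 1.73, 0.778, 3.13 and 2.03 CPM (log2 0.50 ± 0.56). At 180 min MD had 3.67, 3.30, 8.90 and 3.45 CPM and R42A 5.15, 6.81, 5.06 and 2.61 CPM (log2 -0.15 ± 0.41). At 240 min MD had 2.57, 3.38, 6.42 and 4.62 CPM and R42A 3.90, 3.81, 3.77 and 4.19 CPM (log2 0.09 ± 0.48). In these last 3 conditions the groups overlapped and the difference was smaller than its standard error.

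Ordered by level, Cx3cl1 in MD ran from 1.32 ± 0.369 CPM at 90 min through 1.67 ± 0.818 (0 min), 2.20 ± 0.171 (asynchronous), 2.93 ± 0.948 (45 min) and 4.27 ± 1.83 (240 min) to 4.79 ± 1.86 CPM at 180 min. In R42A it ran from 0.915 ± 0.411 CPM at 0 min through 1.91 ± 0.964 (45 min), 3.75 ± 3.24 (asynchronous), 3.92 ± 0.0931 (240 min) and 4.89 ± 1.46 (180 min) to 6.06 ± 3.12 CPM at 90 min. No neighbours in either order differed beyond the spread between clones. By mean level 90 min was the lowest time in MD and the highest in R42A, but in neither did it stand apart. In R42A clone A10 had 3.85 CPM at 90 and 180 min and 3.98 CPM at 240 min. MD held 5 counts at 90 min and 6 at 0 min. In R42A, 45 to 90 min was a step of 1.77 ± 0.40 on the log2 scale, and in MD one of -0.76 ± 0.71.

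**Figure D2:**
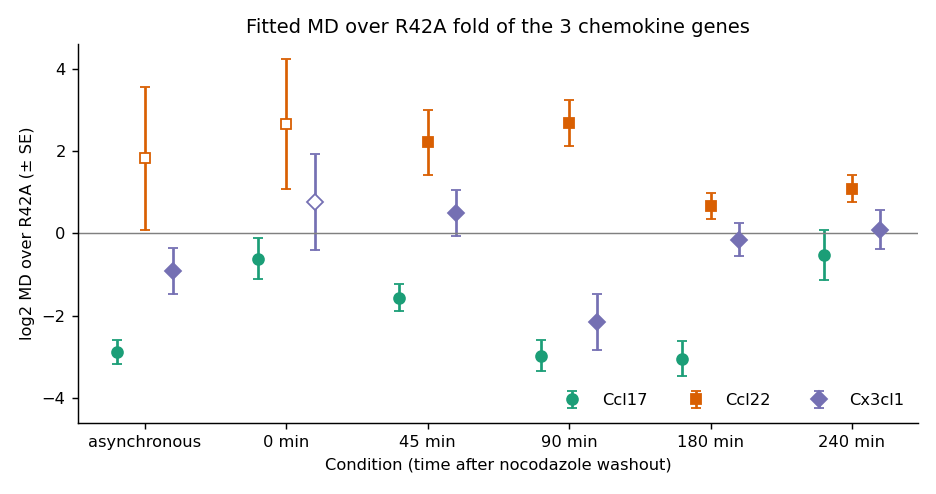
Fitted log2 MD over R42A of each gene by condition, with bars of 1 SE; open symbols mark conditions in which a genotype held 3 counts or fewer. Ccl17 lies at -2.88, -2.97 and -3.04 in asynchronous cells, at 90 and at 180 min, Ccl22 lies above 0 throughout, and Cx3cl1 leaves the range around 0 at 90 min (-2.15).

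Set on a common scale of CPM per kb of exon, the 3 genes exchanged places over the time course, and did so earlier in MD. In asynchronous cells Ccl17 had 8.06 CPM per kb in MD and 54.7 in R42A, while Ccl22 had 0.224 and 0.0522 and Cx3cl1 0.561 and 0.955 CPM per kb. Ccl17 then made up 90.2% of the summed level of the 3 in MD and 98.3% in R42A. At 90 min Ccl17 made up 56.8% in MD (44.6 and 69.0% in its clones) and 95.3% in R42A, and Ccl22 40.0% in MD and 1.49% in R42A. At 180 min Ccl22 was the leading gene in MD with 76.2%, against 26.8% in R42A, where Ccl17 still led with 67.1%. At 240 min Ccl22 led in both, with 82.4% in MD and 63.1% in R42A. Cx3cl1 kept 3.26 to 10.0% in MD and 1.58 to 9.48% in R42A.

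Summed without regard to length, the 3 genes had 6.87 ± 1.61 CPM in MD and 32.0 ± 9.86 CPM in R42A in asynchronous cells, and 38.7 ± 7.55 CPM in MD and 20.8 ± 2.94 CPM in R42A at 240 min (SD, n = 2 clones). Across the 24 sums of a clone and condition, log2(CPM + 0.5) of Ccl17 and Ccl22 had a Pearson correlation of -0.728, Ccl22 and Cx3cl1 of 0.450, and Ccl17 and Cx3cl1 of -0.040. These describe sums that share clones and depth, and no p is given.

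**Figure D3:**
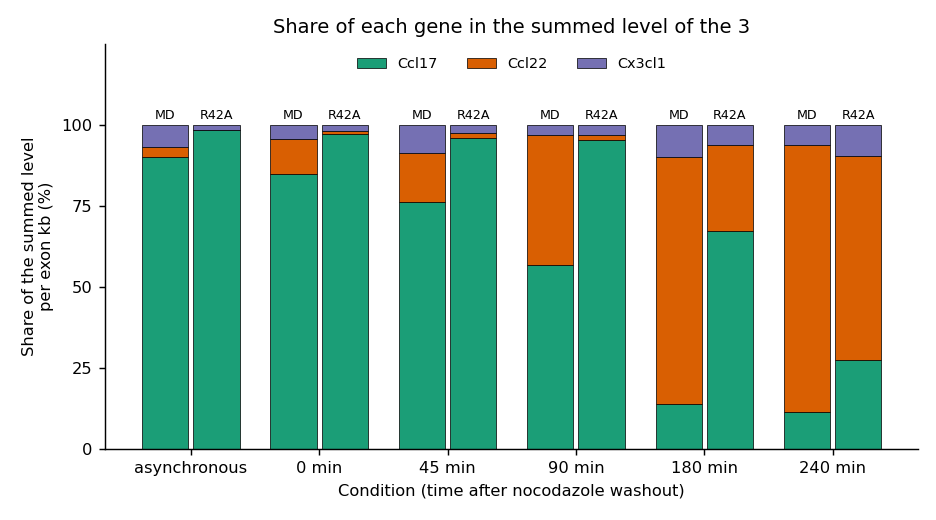
Share of Ccl17 (green), Ccl22 (orange) and Cx3cl1 (purple) in the summed level of the 3, in CPM per kb of exon, as the mean of 2 clones, with MD left and R42A right in each condition. Ccl17 makes up 90.2% in MD and 98.3% in R42A in asynchronous cells, and Ccl22 82.4% in MD and 63.1% in R42A at 240 min.

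The genes around the cluster were then tested, since position and not level chose them. Those called were, but for 1, lower in MD. Of 41 annotated genes within 500 kb of the cluster, 29 had enough counts, and 20 of these were called in at least 1 condition, as were 54.5% of all features tested (edgeR's quasi-likelihood test, Benjamini-Hochberg adjusted p under 0.05 over 23874 features). Of the 20, 19 were called lower only, as were 27.9% of all features, and 1, Nup93 (a nuclear pore subunit), higher only, as were 24.5% of all features, at 45 min (log2 0.59 ± 0.18, adjusted p = 0.0165). In asynchronous cells 13 of 29 (44.8%) were lower in MD and 0 higher, where 7.95% of all features tested were lower and 5.18% higher. At 0 min 7 were lower (24.1%) and 0 higher, against 2.95% and 3.71% of all features.

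At 45 min 13 neighbours were lower and 1 higher (all features 7.33% lower, 10.3% higher), and at 90 min 11 were lower and 0 higher (22.1% and 15.6%). At 180 min 10 were lower and 0 higher (7.46% and 6.55%), and at 240 min 12 and 0 (4.43% and 6.13%). The median log2 MD over R42A of the 29 was -0.63, -0.46, -0.52, -0.72, -0.56 and -0.55 in the 6 conditions in order of time, and that of all features -0.05, 0.00, 0.01, -0.13, -0.02 and 0.01. With clone A04, MD09 or MD30 left out, and so fewer samples, 7, 4 and 6 were called lower in asynchronous cells, 4, 4 and 2 at 0 min, 6, 5 and 5 at 180 min and 4, 1 and 4 at 240 min. Library totals in place of TMM scaling moved the median of all features to 0.08 in asynchronous cells, 0.12 at 45 min and -0.23 at 90 min, and the split of all calls to 1111 lower and 1541 higher in asynchronous cells, 504 and 979 at 0 min, 994 and 2857 at 45 min and 1142 and 1762 at 180 min, against 1898 and 1237, 704 and 886, 1750 and 2451, and 1780 and 1564 with TMM. Under those totals 9, 6, 11, 13, 7 and 10 neighbours were lower in the 6 conditions. Many of these genes overlap on opposite strands, so their calls are not independent of each other.

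The share of genes called lower was not highest next to the chemokines. Of the 17 tested genes within 250 kb, 2 to 6 were lower in a condition; at 90 min the 4 lower were 23.5% of them, near the 22.1% of all features, and at 45 min, with the same 23.5%, their median log2 difference was -0.02. Of the 12 between 250 and 500 kb, 5 to 9 were lower (41.7 to 75%), with medians from -0.82 to -1.12, and several of these overlap one another. Among the 27 between 500 and 1000 kb, 2 to 11 were lower (7.41 to 40.7%) and 0 to 3 higher. The nearest gene downstream, Ciapin1, which acts in cytosolic iron-sulfur cluster assembly, was called in 1 condition only, 240 min, at the edge of the threshold (log2 -0.54 ± 0.18, adjusted p = 0.0493), a call lost in 12 of 20 alternatives. At 90 min, when Ccl17 differed 7.85-fold, Ciapin1 had 16.9 and 32.4 CPM in the MD clones and 28.3 and 28.4 CPM in the R42A clones (log2 -0.24 ± 0.21, adjusted p = 0.392).

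Pllp, which encodes the membrane protein plasmolipin, is the nearest upstream gene with enough counts. It was lower in MD in asynchronous cells (34.4 and 33.6 CPM in MD clones, 95.8 and 69.0 CPM in R42A clones; log2 -1.41 ± 0.18, adjusted p = 1.38e-06), and at 45, 90 and 180 min. Its largest difference was at 90 min (11.3 and 18.2 CPM in MD clones, 56.0 and 56.2 CPM in R42A clones; log2 -1.93 ± 0.23, adjusted p = 4.95e-08). At 0 and 240 min it was not called (adjusted p = 0.159 and 0.257), and at 180 min the call (adjusted p = 0.0267) was lost with library totals in place of TMM scaling (0.102) and with DESeq2 (0.0626). Pllp and Ccl17 were thus both lower in MD in asynchronous cells and at 45, 90 and 180 min.

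Genes lower in all 6 conditions lay downstream, 45.4 to 326.3 kb past Ccl17. Polr2c, an RNA polymerase II subunit, had log2 values of -0.59 to -1.07, its largest at 0 min (38.1 and 25.8 CPM in MD clones, 69.9 and 57.5 CPM in R42A clones; -1.07 ± 0.21, adjusted p = 0.000983). Kifc3, a minus-end-directed kinesin, ran from -0.77 to -1.72. Kifc3 at 90 min had 23.6 and 40.3 CPM in MD clones and 105 and 105 CPM in R42A clones (-1.72 ± 0.22, adjusted p = 1.78e-07). With library totals in place of TMM scaling the calls of Polr2c in asynchronous cells and at 180 min and of Kifc3 at 0 min were lost (adjusted p = 0.117, 0.0616 and 0.0924). The 0 min Kifc3 call was lost in 10 of 20 alternatives and the asynchronous Polr2c call in 7 of 20. Gm31224 and Gm31036, antisense RNAs inside Kifc3, were lower in all 6 conditions too, and Gm45812, also inside it, in 5. Reads of Kifc3 and these 3 cannot be told apart without strand. Upstream, Gm15890 was lower in 5 conditions and not at 90 min (log2 -0.65 ± 0.27, adjusted p = 0.0574). Its asynchronous call was lost in 10 of 20 alternatives, among them library totals (adjusted p = 0.102) and DESeq2 (0.0723).

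**Figure D4:**
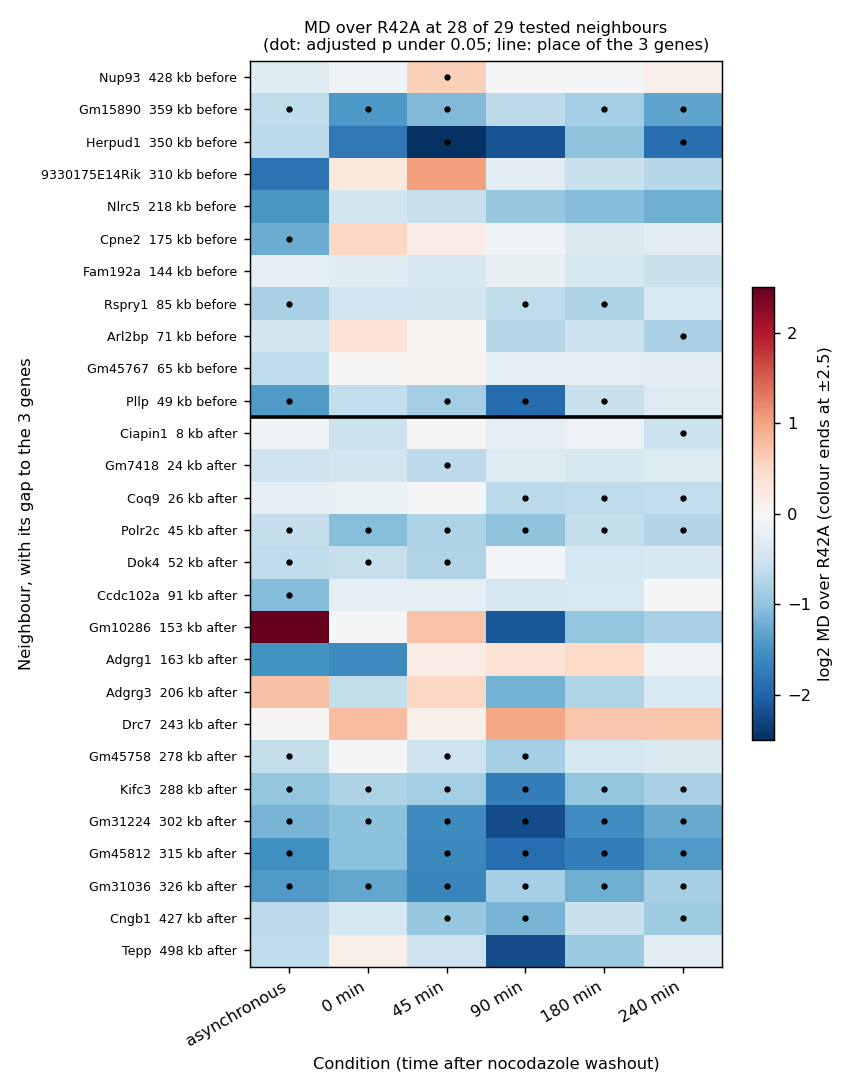
Log2 MD over R42A (colour) of 28 of the 29 tested neighbours in chromosome order, with each gene's gap to the cluster, by condition; dots mark adjusted p under 0.05 and the black line the place of the 3 chemokine genes. Blue, lower in MD, prevails on both sides, and Nup93 at 45 min is the only one called higher.

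Of the receptors of the 3 ligands, Ccr4 was called in no condition and Cx3cr1 in 1. Ccr4, the receptor of CCL17 and CCL22, had 2.95 to 24.5 CPM in MD libraries and 3.77 to 13.1 CPM in R42A libraries and its log2 difference ran from -0.53 ± 0.32 (asynchronous, adjusted p = 0.321) to 0.72 ± 0.35 (90 min, adjusted p = 0.105). Cx3cr1, the receptor of CX3CL1, was listed at 628 to 1120 CPM in MD and 677 to 1133 CPM in R42A, but its annotated span overlaps 6 genes on the other strand, among them Wdr48 and Ttc21a, and reads of these cannot be told apart from its own. It was called once, lower in MD at 90 min (log2 -0.37 ± 0.15, adjusted p = 0.0486), a call lost in 16 of 19 alternatives.

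Of the 23 chemokine receptors, 12 had enough counts, and 0 to 3 were higher and 0 to 4 lower in MD in a condition. The 3 and the 4 were at 90 min, when 15.6% of all features were higher and 22.1% lower. Ccr7, which leads dendritic and T cells to lymph nodes, was higher in MD in 5 of 6 conditions. In asynchronous cells it had 6.77 and 5.17 CPM in MD clones and 0.448 and 0.729 CPM in R42A clones (log2 3.18 ± 0.55, adjusted p = 9.11e-05). At 240 min it had 5.32 and 10.2 CPM in MD clones and 1.07 and 2.11 CPM in R42A clones (2.24 ± 0.42, adjusted p = 0.000349). Its 90 min call was lost in 6 of 18 alternatives. The decoy receptor gene Ackr2 was higher at 45 and 90 min (2.55 ± 0.51 and 1.69 ± 0.60, adjusted p = 0.000596 and 0.0262), and Ccr6 was lower at 180 and 240 min (-1.74 ± 0.49 and -1.68 ± 0.51, adjusted p = 0.0132 and 0.0296). The 180 min Ccr6 call was lost with DESeq2 (adjusted p = 0.0966), and the 240 min call in 8 of 17 alternatives.

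Of the other chemokine ligands more were called higher than lower in MD in every condition. Of 35 listed, 11 had enough counts; 2, 3, 5, 3, 4 and 3 were higher and 0, 0, 1, 2, 1 and 0 lower in the 6 conditions in order of time. Over all features the shares were 5.18, 3.71, 10.3, 15.6, 6.55 and 6.13% higher and 7.95, 2.95, 7.33, 22.1, 7.46 and 4.43% lower. The ligands' median log2 difference was 0.14, 1.6, 0.30, -0.33, 0.23 and 0.37; at 0 min it was 0.89 with the 3 genes that had a group at 0 set to their bound against 3 counts over the group. Ccl6 and Ccl1, CC chemokines on chromosome 11 that attract myeloid cells and T cells, were higher in MD in all 6 conditions; Ccl6 overlaps E230016K23Rik on the other strand, from which its reads cannot be told apart. Ccl6 at 90 min had 55.7 and 70.3 CPM in MD clones and 10.5 and 7.71 CPM in R42A clones (log2 2.84 ± 0.20, adjusted p = 6.99e-12), and Ccl1 15.2 and 18.2 CPM in MD clones and 1.90 and 1.75 CPM in R42A clones (3.25 ± 0.34, adjusted p = 7.26e-09). Their differences were smallest at 180 min (0.85 ± 0.18 and 1.68 ± 0.26, adjusted p = 0.00161 and 2.02e-05).

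Ccl24, an eosinophil attractant (eotaxin-2) on chromosome 5, was, as Ccl22, near 0 in asynchronous cells and highest at 240 min. It held 4 counts in MD and 0 in R42A in asynchronous cells, and at 240 min 13.6 and 16.5 CPM in MD clones and 3.42 and 6.80 CPM in R42A clones (log2 1.53 ± 0.31, adjusted p = 0.000938). It was higher in MD at 45, 90, 180 and 240 min, with the 45 and 180 min calls lost under DESeq2 (adjusted p = 0.104 and 0.131). In the other direction, Cxcl17, a mucosal chemokine gene that overlaps 4732471J01Rik on the other strand and cannot be told apart from it, was lower in MD at 45, 90 and 180 min, most at 90 min (log2 -1.0 ± 0.15, adjusted p = 2.49e-06). Its 180 min call (-0.41 ± 0.14, adjusted p = 0.0479) was lost in 17 of 20 alternatives. At 45 and 90 min its log2 values were opposite in sign to those of Ccl22 and Ccl24.

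**Figure D5:**
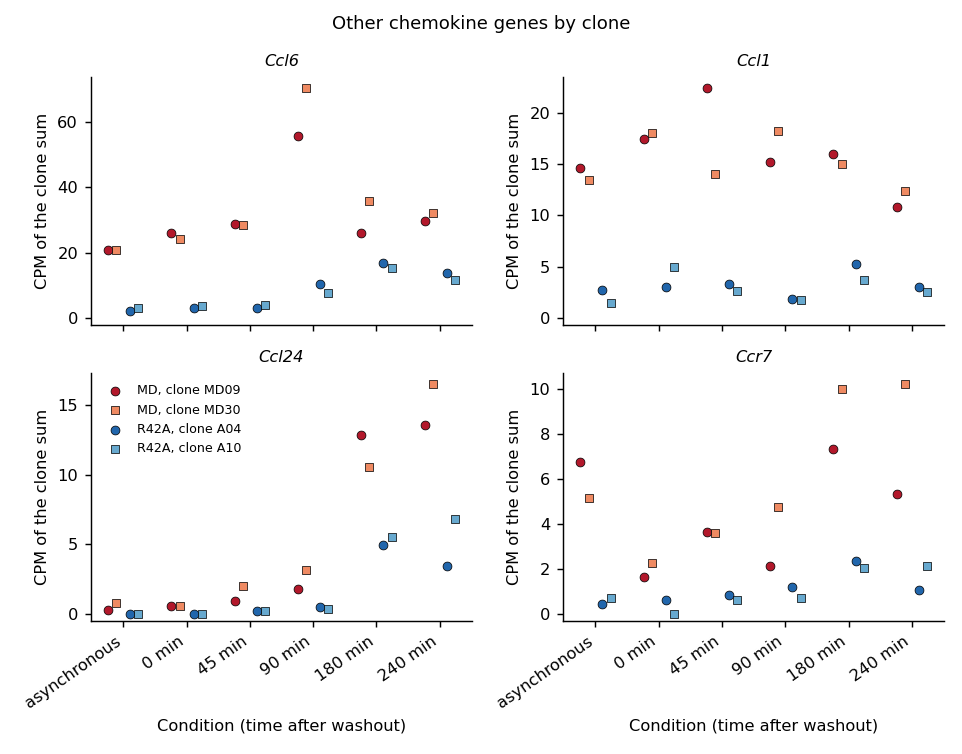
CPM of the clone sums of Ccl6, Ccl1, Ccl24 and Ccr7 by condition, with MD clones (red) left of R42A clones (blue). Ccl6 and Ccl1 lie apart in every condition, and Ccl24 reaches 13.6 and 16.5 CPM in MD and 3.42 and 6.80 CPM in R42A at 240 min.

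Among genes that act on the cluster's products, 1 of 5 proteases was called in any condition, as were 54.5% of all features tested. Adam17, which sheds CX3CL1, was lower in MD at 90 min (log2 -0.61 ± 0.21, adjusted p = 0.0197), a call lost in 10 of 19 alternatives, among them DESeq2 (adjusted p = 0.12). It overlaps Iah1 on the other strand. Adam10, Dpp4, Mmp2 and Ctss were not called. Of 24 NF-kB and STAT6 pathway genes, 22 had enough counts, and 0 to 3 were higher and 1 to 5 lower in a condition, with medians from -0.18 to 0.15. The 3 higher were in asynchronous cells, when 5.18% of all features were higher. The 5 lower were at 90 min, when 22.1% of all features were lower, a share like that of the list. Nfkb1, an NF-kB subunit gene, was lower in MD in 5 conditions (from -0.49 ± 0.17 at 45 min to -0.95 ± 0.19 at 90 min, adjusted p = 0.0446 and 0.000207). Map3k14, the kinase of the non-canonical pathway, was higher in 5, and not at 0 min. It had 98.3 and 108 CPM in MD clones and 48.4 and 56.5 CPM in R42A clones at 240 min (0.95 ± 0.15, adjusted p = 5.52e-05), and its largest difference was at 45 min (1.52 ± 0.18, adjusted p = 1.69e-07). Stat6 was called in no condition. With library totals in place of TMM scaling, the Nfkb1 calls in asynchronous cells and at 0 and 45 min were lost (adjusted p = 0.0587, 0.0774 and 0.227). Bcl3, a nuclear partner of NF-kB, was higher in asynchronous cells and at 90 min (0.63 ± 0.16 and 0.82 ± 0.17, adjusted p = 0.0075 and 0.000184), and Traf1 lower at 180 and 240 min (-1.19 ± 0.36 and -1.21 ± 0.36, adjusted p = 0.041 and 0.0469). The Traf1 calls were lost in 10 and 11 of 20 alternatives, among them library totals (adjusted p = 0.0742 and 0.0646). Bcl3 overlaps Gm16175 and Gm16174 on the other strand.

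Markers of cells that classically make these chemokines were read in the same libraries. The 12 myeloid and dendritic markers summed to 147 to 346 CPM in MD clones and 165 to 325 CPM in R42A clones. The pan-leukocyte gene Ptprc held 31 counts over all 48 libraries, H2-Aa 10 and H2-Ab1 41, and Itgam 0. Of the 8 with enough counts, 0 to 2 were higher and 0 to 3 lower in a condition. The 2 higher were at 45 min, when 10.3% of all features were higher. The 3 lower were at 90 min, when 22.1% of all features were lower. Itgax, the CD11c gene, was higher in MD at 0, 45 and 90 min; at 45 min it had 11.8 and 13.1 CPM in MD clones and 1.43 and 1.99 CPM in R42A clones (log2 2.72 ± 0.32, adjusted p = 2.17e-07). Like Ccl22 it stood far higher at 240 min (44.0 and 46.5 CPM in MD clones, 35.1 and 30.7 CPM in R42A clones) than in asynchronous cells (1.3 and 1.03 CPM in MD clones, 0.672 and 0.972 CPM in R42A clones). The 0 min Itgax call was lost in 9 of 19 alternatives. Cd68 was higher in asynchronous cells and at 45 min and lower at 90 min, and its 45 min call was lost in 15 of 20 alternatives. Csf1r and Adgre1 were lower at 45 min (adjusted p = 0.0296 and 0.0172), the Csf1r call lost in 8 of 20 alternatives. Cd74 and Spi1 were lower at 90 min (3.96e-05 and 0.00707), and Flt3 was higher at 180 min (0.0299). Csf1r had the highest mean of the 12, 111 CPM, and overlaps Hmgxb3 on the other strand. The 6 endothelial markers summed to 83.9 to 181 CPM in MD clones and 66.4 to 147 CPM in R42A clones. Of the 6 tested 0 to 2 were higher and 0 to 1 lower in a condition. The 2 higher were at 90 min, when 15.6% of all features were higher. The 1 lower was in asynchronous cells and at 180 min, when 7.95 and 7.46% of all features were lower. Pecam1 was higher in MD in asynchronous cells and at 45 and 90 min (log2 0.70 ± 0.17, 0.70 ± 0.16 and 0.84 ± 0.18, adjusted p = 0.00516, 0.00257 and 0.000279), and Emcn at 90 min (2.54 ± 0.47, adjusted p = 7.1e-05). Tek was lower in asynchronous cells and at 180 min (-0.64 ± 0.20 and -0.92 ± 0.18, adjusted p = 0.0316 and 0.000403), the first lost in 13 of 20 alternatives. The 6 fibroblast markers summed to 3.62 to 18.6 CPM in MD clones and 1.79 to 29.9 CPM in R42A clones. At 180 min the sums were 14.7 to 17.3 CPM in MD clones and 22.3 to 29.9 CPM in R42A clones. Of the 3 tested, 1 was called, Thy1, lower at 180 min (log2 -1.53 ± 0.31, adjusted p = 0.000849), when 7.46% of all features were lower. The part of these markers in the chemokine values was not tested. In bulk RNA, fewer cells of a type and less RNA per cell cannot be told apart.

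The genes whose levels ran most like each of the 3 over the 24 clone sums were found among 14592 features. These passed the filter of the tests and had a mean of at least 2 CPM. Features with provisional names (Gm and a number, Rik, or a name with a point) were left out. The likeness rests on sums that share clones and depth, and is given as a description. Ccl17 was most like Gcdh (Pearson r = 0.867), Slc25a18 (0.864), Arhgap31 (0.864), Cd8a (0.858) and Dop1a (0.856). Arhgap31 in asynchronous cells had 16.1 and 25.3 CPM in MD clones and 111 and 74.1 CPM in R42A clones, and at 90 min 12 and 19.0 CPM in MD clones and 60.8 and 58.5 CPM in R42A clones. Gcdh is the only one of the 15 on chromosome 8, at 84886393 to 84893921, far outside the 500 kb window.

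Ccl22 was most like Antxr1 (r = 0.947), Ccdc40 (0.940), Mkln1 (0.935), Rab11fip2 (0.934) and Gpr132 (0.934). Antxr1 ran from 35.2 and 33.1 CPM in asynchronous MD clones to 453 and 509 CPM at 240 min, and in R42A clones from 16.3 and 16.3 CPM to 316 and 313 CPM. Cx3cl1 was most like Myog (r = 0.851), B3gnt6 (0.810), Cxcr3 (0.809), Stab2 (0.808) and Cacybp (0.808). Like Cx3cl1, Myog was lowest in MD at 90 min (1.06 and 1.58 CPM) and had 4.65 and 2.98 CPM in R42A clones at that time. With Spearman in place of Pearson correlation 2 (Ccl17), 1 (Ccl22) and 3 (Cx3cl1) of the 5 stayed among the first 5.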

How the data were processed

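Per the labels' protocols, a Click-iT capture kit pulled down the RNA that had taken up 5-ethynyluridine, and KAPA Hyper Prep was used for the libraries. The submitters' processing notes list Trim Galore 0.60, STAR 2.7.1a, RSEM 1.3.0 and mm10, with no role or order; the counter and its strand setting are not given in the sources used here. The values are whole-number counts per gene symbol, deposited by the authors as 1 table per library and not normalized. Counter entries for reads in no feature (90.2 to 94.0% of a table) and the like were left out of totals and tests. Of 55291 symbols, 53292 matched GENCODE M21. The labels do not say whether the paired libraries of a clone are separate cultures, and they were summed into 24 clone sums. The p-values rest on the spread between the 2 clones within a group, pooled over the 12 groups and in part over all features. The same clones recur in every condition, and the fit takes their sums as independent. Calls of a gene in several conditions are therefore not separate evidence, and no p-value covers clones beyond these.

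Tests used edgeR 4.0.16 in R 4.3.3: filterByExpr (minimum count 10, total 15), TMM scaling, a robust quasi-likelihood fit of 12 group means and Benjamini-Hochberg adjustment over the 23874 features that passed, with a threshold of 0.05. Of the 3 chemokine genes, 3 passed the filter. For changes between times the clone was added as a term. Ratios with 3 counts or fewer in a group have exact 95% intervals from the binomial split of counts, which cover counting error only. The alternatives were each clone and each library left out, the libraries fitted singly, the replicate number as a block, DESeq2 size factors, library totals, no filter, DESeq2 1.42.0, 1 condition alone, windows of 250 and 1000 kb, no clone term, and other measures of likeness. A fit without the 90 min libraries was added after seeing the data.

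The 3 genes and all gene lists were chosen with earlier results of these data known. Named genes were those genes, the neighbours on either side, the 8 neighbours called in most conditions, of each list at most 4 members called in most conditions, the 2 receptors, Smarce1 and the 5 genes most like each of the 3; 1 neighbour is not reported here, though the counts include it. Actb, Gapdh, Herpud1, Gnb1-ps3, Ptprc, H2-Aa, H2-Ab1, Itgam, Sox2, Stat6, Pou5f1, Utf1, Nanog, Adgre1, Spi1, Flt3 and the uncalled proteases were named after their values were seen. The fits of named genes counted below leave out Pou5f1, Utf1, Nanog, Adgre1, Spi1, Flt3 and Nup93, so whether their calls held in the alternatives is not given.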

Additional observations from a re-analysis of the deposited data

Results flagged for a closer look

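In 8 of 144 groups of 4 libraries of the 3 chemokine genes and 9 neighbours, 1 library stood far from the other 3 by Dixon's criterion. Chance alone meets it in about 1 group in 20 where values are normally spread. That rate does not hold for groups with only a few counts per library. Ccl17 in asynchronous MD had 7.39 CPM in a library of MD30, where the others had 2.59 to 3.26 CPM. Ccl22 in asynchronous R42A had 0.456 CPM in a library where the others were at 0, and at 0 min 1.12 CPM where the others were at 0. These last are single counts. Cx3cl1 in R42A at 0 min was at 0 in 1 library, with 1.12 to 1.31 CPM, a single count each, in the others. At 90 min Cx3cl1 had 0.659 CPM in 1 MD library, with 1.52 to 1.59 CPM in the others, all from 1 or 2 counts. At 180 min it had 8.90 CPM in 1 MD library, with 3.30 to 3.67 CPM in the others. Among the neighbours, Gm31036 had 44.1 CPM in 1 MD library at 0 min (others 24.5 to 25.9 CPM), and Gm15890 had 24.2 CPM in 1 R42A library at 180 min (others 15.7 to 16.5 CPM).

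For 3 genes of the lists, every MD library lay on one side of every R42A library at some time and on the other side at another time. Cx3cr1 had log2 MD over R42A values of -0.37 at 90 min and 0.07 at 240 min. Bcl3, of the NF-kB list, had 0.63 in asynchronous cells, -0.24 at 180 min and -0.29 at 240 min. Tek, an endothelial receptor kinase gene, had 0.43 at 0 min and -0.92 at 180 min. For each gene, all calls went in the same direction. Not called were Cx3cr1 at 240 min (adjusted p = 0.836), Bcl3 at 180 and 240 min (0.36 and 0.287) and Tek at 0 min (0.438). The share of all features that cross over in this way is not given here, so the count of 3 cannot be judged. The difference between these times was not tested.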

How the results depend on the processing

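The fitted differences of the 3 chemokine genes stayed within the spread between clones in 336 of 352 alternative fits, and the other 16 all left out a clone or a library. Over those fits Ccl17 ranged from -3.79 to -2.58 at 180 min and from -1.11 to 0.28 at 240 min. Ccl22 ranged from 0.92 to 4.30 in asynchronous cells, -3.44 to 6.03 at 0 min, 1.46 to 3.64 at 45 min and 1.80 to 3.16 at 90 min; the first pair of these ranges includes fits against a group at 0 counts, which are no bounds. Cx3cl1 ranged from -1.59 to 0.52 in asynchronous cells and from -0.35 to 1.36 at 0 min. With a clone or library left out, the count of neighbours lower in MD ranged from 4 to 13 in asynchronous cells, 2 to 8 at 0 min, 5 to 11 at 180 min and 1 to 12 at 240 min, and of those higher from 0 to 2 at 45 min, 0 to 1 at 90 min and 0 to 1 at 180 min. At 0 min, 4 were lower without A10 replicate 1, without MD09 replicate 2 or without MD30 replicate 1. Within 250 kb, 6, 2, 4, 4, 4 and 4 neighbours were lower in the 6 conditions in order of time, and 0 were higher at 45 min; within 1000 kb 20, 22 and 17 were lower at 45, 90 and 180 min, and 1, 2 and 3 higher in asynchronous cells, at 45 and at 90 min. At 180 min 1 was higher in the libraries fitted singly or without a filter, and at 240 min 1 was higher in 1 condition alone. Of the changes between times 77 of 396 fits moved beyond that spread. Of 4472 fits of named genes, 327 lost and 68 gained a call, and 0 changed sign with a call. The replicate numbers did not pair the samples: deviations of libraries with the same number correlated at -0.077 to 0.071 over 24 pairs. With the replicate block, 13, 8, 13, 10, 12 and 16 neighbours were lower, and Ccl17 was at -2.77 in asynchronous cells. Over all features, counts that moved by more than 1.5 times were, with 1 condition alone, 1075 lower in asynchronous cells (1898 in the reported fit) and 1602 lower at 240 min (1058), and with DESeq2 1526 higher at 45 min (2451), 3406 lower at 90 min (5267), 1115 lower at 180 min (1780) and 946 higher at 240 min (1463); the cause was not tested. With DESeq2 size factors the split at 90 min was 4302 lower and 4527 higher, against 5267 and 3736 with TMM. With a clone left out the all-feature counts were as low as 221 (lower at 0 min, without MD30). Ccl22 in asynchronous cells and at 0 min, and Cx3cl1 and Ccl17 in MD at 90 min, held at most 5 counts per library, which limits the precision of their values.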
